A study of Mus musculus with 6 samples.

Results

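Star miRNAs were the 115 mouse microRNAs (miRNAs) on the array whose name ended in an asterisk, among 611 mouse miRNAs in all. They were chosen by name alone, with no measured value. A miRNA hairpin is cut into a short duplex, and usually the guide strand is loaded into an Argonaute protein and represses target transcripts, while the passenger strand is lost. The older naming of miRNAs gave the asterisk to the strand recovered less often and the plain name to the other strand. Which strand of a hairpin is kept can differ between tissues, and some strands with an asterisk are loaded and repress targets of their own. A miRNA finds its targets mainly through its seed, bases 2 to 8, so the strands of a hairpin address different transcripts.

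The samples came from the mouse line EB3 of embryonic stem (ES) cells, of strain background 129/Ola, with 3 arrays in a control group titled Activin (-) and 3 in a group titled Activin (+). Activin signals through SMAD proteins as other TGF-beta ligands do, and is used to drive ES cells towards mesendoderm and endoderm. The culture protocol gives 10 ng/ml Activin during 3 days as embryoid bodies and 15 days as adherent cells on gelatin, with harvest on day 18. Its wording is identical for all 6 samples, so the state of the control cells (undifferentiated, or differentiated without Activin) is not given in the sources used here. The labels do not state separate cultures for the arrays of a group, and a p-value here reflects only variation among these arrays, possibly technical.

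Among ES cell markers (miR-290 to miR-295, miR-302 and miR-367), 10 of 14 were detected on at least 1 array. Their summed scaled signal was 16.0, 6.29 and 8.34 in control and 5.985, 7.70 and 5.95 with Activin. The highest sum came from control 1 alone, and the other control arrays lay close to the Activin arrays. Members differed in direction: the mean scaled log2 signal was lower with Activin for miR-292-3p and higher for miR-302c. Of 7 mesenchymal markers, a list that includes miR-199b*, 5 were detected, with a summed scaled signal between 2.01 and 3.30. No haematopoietic marker (6 on the array) and no liver, gut or islet marker (8) was detected. Of the markers on the array, 1 of 4 neural, 1 of 6 striated muscle, 1 of 2 endothelial and 3 of 7 epithelial ones were detected. The part of these cell types in the star signals was not tested. Of all 611 mouse miRNAs, 21.3% were detected on at least 1 array. The dimmest arrays were control 1 and activin 2, which are the 2 arrays in column 1 of the slide; the part of slide position in their signal was not tested. The 75th percentile over probes detected on all arrays, which was used to scale each array, was 249 and 177 intensity units there, against 427 to 616 on the other 4.

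A total of 112 star miRNAs had a partner on the array, 93 under the same name without the asterisk and 19 after a hairpin copy number was also removed. The partners numbered 108, since several hairpin copies can share a partner. miR-199b*, miR-297a* and miR-374* had none. Star names were followed to RefSeq, in which 95 of the 115 hairpins had both strands named.

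Mature sequences of the hairpins whose star strand was detected are shown first, because in each of them the plainly named strand was not detected or was not on the array under its own name. All sequences are from RefSeq (table build GRCm38.p6), written 5′ to 3′ with the seed in capitals. The array's miR-17* is the 3p strand of Mir17, miR-9* the 3p strand of the Mir9 hairpins, miR-135a-1* the 3p strand of Mir135a-1 and miR-674* the 3p strand of Mir674.
miR-17*: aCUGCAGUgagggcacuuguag
miR-17: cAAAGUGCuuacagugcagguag
miR-9*: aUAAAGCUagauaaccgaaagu
miR-9: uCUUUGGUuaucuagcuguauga
miR-135a-1*: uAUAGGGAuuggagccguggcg
miR-135a: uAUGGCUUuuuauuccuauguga
miR-674*: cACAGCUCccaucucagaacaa
miR-674: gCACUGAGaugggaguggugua

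The strands of each of these 4 hairpins had different seeds. The seed of miR-17* was shared by 2 other mature miRNAs in the table, the 3p strands of miR-106a and miR-20b. The seed of miR-17 was shared by 6 others. The star strand had the higher GC share in 2 of the 4 hairpins, at 54.5% against 47.8% for miR-17* and 59.1% against 30.4% for miR-135a-1*. It had the lower share for miR-9*, at 31.8% against 34.8%, and for miR-674*, at 50% against 54.5%.

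For Mir299a the array name does not say which strand carries the asterisk, so both strands are shown under their RefSeq names.
miR-299a-5p: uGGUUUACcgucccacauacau
miR-299a-3p: uAUGUGGGacgguaaaccgcuu

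The mature sequence of miR-199b* is not printed. The other strand of its hairpin has the same sequence as miR-199a-3p, which is on the array and is shown because it stands in for a partner.
miR-199b-3p and miR-199a-3p: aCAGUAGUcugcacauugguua

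Detection was counted for each array. A miRNA was called detected where more than 0.5 of the spots of at least 1 of its probes were well above background by the scanner software. Of the 115 star miRNAs, 6 (5.22%) were detected on at least 1 array, against 130 of 611 mouse miRNAs (21.3%) and 55 of the 108 partners (50.9%). Star miRNAs differed in probe number: 82 had 4 probes, 3 had 3 and 30 had 2. The part of probe number in these detection shares was not tested. On all 6 arrays 1 star miRNA (0.87%) was detected, against 26 partners (24.1%) and 53 of all mouse miRNAs (8.67%). By array, 2, 6 and 6 star miRNAs were detected in control and 6, 1 and 6 with Activin. The arrays with 2 and 1 were control 1 and activin 2, and each of the other 4 arrays detected the same number. In these bulk samples, fewer cells of a type and less RNA per cell cannot be told apart.

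**Figure D1:**
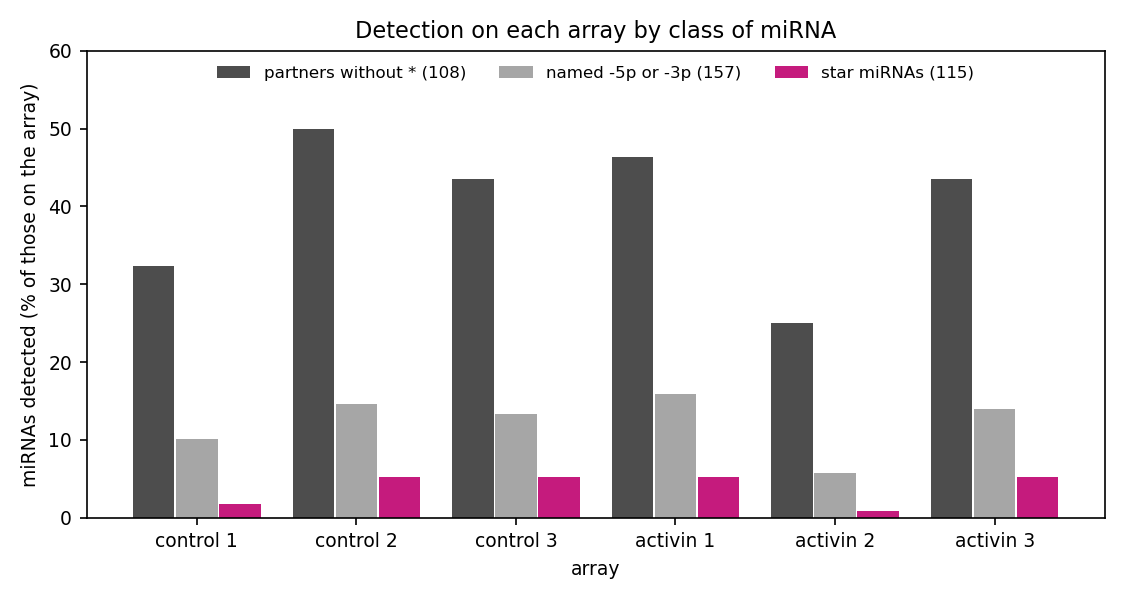
Share of miRNAs detected on each array (y axis, percent of the miRNAs of that class on the array; x axis, array) for the partners, for miRNAs named -5p or -3p, and for star miRNAs. Star miRNAs have the lowest bar on each of the 6 arrays, between 0.87% and 5.22%, and the partners the highest, between 25% and 50%.

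The share of star miRNAs detected per array averaged 3.91% ± 2.04 (SD, n = 6 arrays), against 40.1% ± 9.46 for the partners. The difference was -36.2 percentage points ± 7.52 and star miRNAs had the lower share on 6 of 6 arrays (exact sign-flip permutation test over arrays, two-sided, p = 0.0313, the smallest that 6 arrays allow, and also 0.0313 when adjusted over 2 comparisons). Hairpin strands named -5p or -3p, a naming used where neither strand clearly dominated, averaged 12.3% ± 3.75. The difference was -8.40 percentage points ± 1.95, and star miRNAs were again lower on 6 of 6 arrays (exact p = 0.0313, adjusted 0.0313). Both tests were chosen after the values were seen, and all arrays carry the same probes, so they describe this array design. The p-values measure no variation among miRNAs. The asterisk was given to the strand recovered less often, so the direction against the partners was favoured in advance by the naming.

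Control and Activin did not separate in the number of star miRNAs detected. Control arrays averaged 4.67 ± 2.31 and Activin arrays 4.33 ± 2.89 (SD, n = 3 each), a difference of -0.333 (exact permutation p = 1; 3 against 3 cannot go below 0.1). For the other mouse miRNAs the means were 98.7 ± 18.3 and 90.0 ± 32.4 (exact permutation p = 0.7). The differences were small beside the spread within each group, which followed the dim array of that group in both counts.

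Star miRNA and partner were set side by side in the 112 hairpins with a pair. In none were both strands detected. In 57 only the partner was, in 50 neither strand was, and in 5 only the star strand was. Of these 57 pairs, the partner was detected on all 6 arrays in 27 and on 1 to 5 in 30; hairpin copies that share a partner count as separate pairs.

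**Figure D2:**
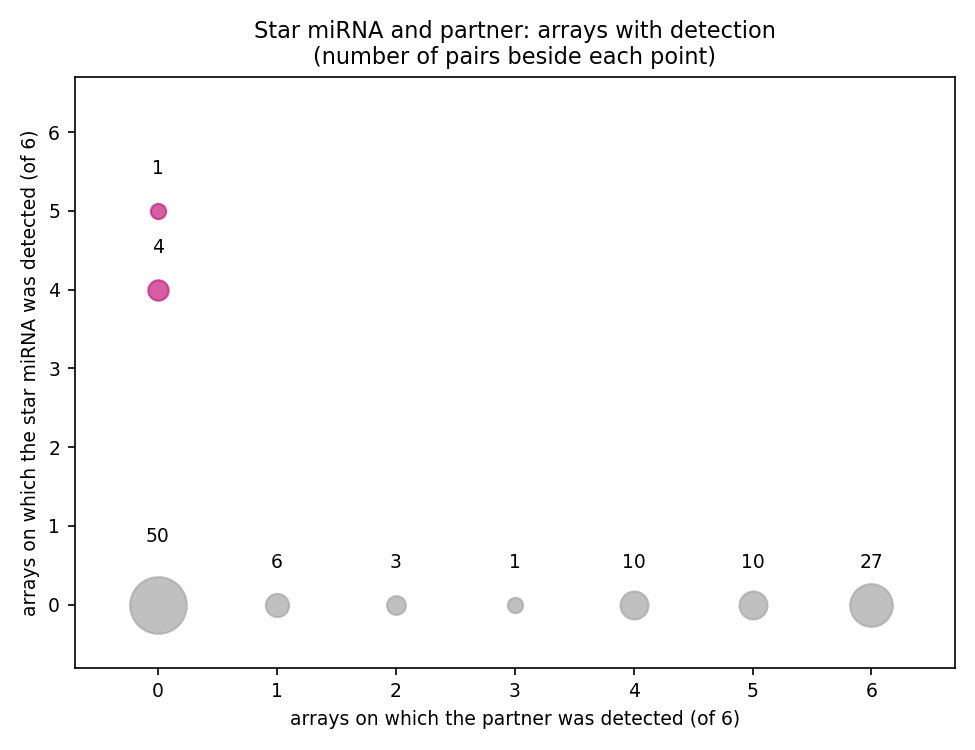
Number of arrays on which the partner (x axis) and the star miRNA (y axis) of each of 112 pairs were detected, with the number of pairs beside each point. All points lie on an axis: 57 pairs have the partner alone, 5 have the star strand alone, detected on 4 or 5 arrays, and 50 have neither.

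The 27 star miRNAs whose partner was detected on all 6 arrays had background-subtracted intensities between -8.08 and 15.5. In name order, the first 20 are the star strands of let-7a-1, let-7b, let-7c-1, let-7d, let-7f-1, let-7i, miR-106b, miR-127, miR-130b, miR-15b, miR-196a-2, miR-200c, miR-20a, miR-20b, miR-21, miR-214, miR-22, miR-24-1, miR-24-2 and miR-27a. Both hairpin copies of miR-24 share a partner. The 95th percentile of negative control spots, a guide to what background gives, was 14.04 intensity units on activin 2 and 9.26 to 11.05 on the other arrays. let-7b* (10.2 to 14.6, median 10.95) and let-7f-1* (8.74 to 15.5, median 14.15) were the highest of the 27, and all others stayed below 9.26. let-7f-1* lay below the 95th percentile of its array on activin 2 alone, and let-7b* on activin 2 and control 1. On the other arrays each lay above it, though neither was called detected.

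The hairpins of miR-21, a miRNA abundant in mesenchymal cells, and miR-293, a miRNA of the ES cell cluster miR-290, are printed as examples of this largest class with a detected strand.
miR-21: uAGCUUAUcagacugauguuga
miR-21*: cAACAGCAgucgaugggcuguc
miR-293: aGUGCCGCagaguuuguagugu
miR-293*: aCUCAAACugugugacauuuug

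The intensity of miR-21 was 264, 837 and 619 in control and 888, 286 and 857 with Activin. That of miR-21* was -5.67, -4.23 and -5.26 in control and -3.58, -5.50 and -4.85 with Activin. The partner was bright on every array, lowest on control 1 and activin 2, while the star strand stayed below 0 on all 6. For miR-293 the lowest, median and highest intensities were 504, 1107 and 1307, and for miR-293* they were -1.18, 0.376 and 2.02. Intensities of different probes are not a scale of abundance, because probes bind with different strength, so these values say only which strands rose above background.

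By family, the 7 let-7 star miRNAs were all undetected while all 7 partners were detected, 6 of them on all arrays. let-7 is the family that accumulates as cells leave the pluripotent state. The 3 star strands of the miR-290 cluster reached at most 2.02 intensity units, while their 3 partners were all detected and reached 1307. Among miR-302 family hairpins, which mark the epiblast, the 3 star strands reached at most 1.69 units and were undetected, with all 3 partners detected on some arrays. The 5 star strands of the miR-30 family and the 4 of the miR-23/27/24 clusters were undetected as well, with 3 of 4 and 3 of 3 partners detected. In the miR-200 family, which marks epithelial cells, 0 of 4 star strands and 2 of 4 partners were detected. The miR-17-92 and miR-106b-25 clusters had 1 of 6 star strands detected, and the Dlk1-Dio3 region, an imprinted domain rich in miRNAs, had 1 of 13. These counts stand beside 5.22% for all star miRNAs, and no family was tested against it.

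The 6 detected star miRNAs were miR-199b*, miR-135a-1*, miR-299*, miR-9*, miR-17* and miR-674*. miR-135a-1* had 4 probes, miR-674* had 3 and the others had 2 each. The values that follow are background-subtracted intensities in scanner units, the mean over the probes of a miRNA. miR-199b* comes from a hairpin that lies within the span of Dnm1, a dynamin gene, and belongs to a miRNA family found in mesenchymal cells. Its intensity was 59.1, 252 and 150 in control and 219, 68.8 and 214 with Activin, and it was detected on all 6 arrays. The low arrays of each group were again control 1 and activin 2, and the groups overlapped. Its 2 probes differed: the brighter gave 104 to 461 units and was detected on every array, and the dimmer gave 12.1 to 44.8 and was undetected on control 1, control 3 and activin 2. miR-199a-5p is a close relative of miR-199b*, and how much a probe for one takes up of the other was not tested.

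miR-135a-1* comes from a hairpin within the spans of the non-coding gene D030055H07Rik and of Glyctk, the glycerate kinase gene. Its intensity was 15.8, 31.4 and 33.8 in control and 32.7, 11.1 and 29.7 with Activin. It was detected on 5 arrays, all but activin 2. Of its 4 probes, 2 carried the signal, at up to 53.5 and 65.0 units. Its partner miR-135a gave 6.62, 6.65 and 4.37 in control and 5.10, 4.601 and 8.10 with Activin, and was detected on none. No spot of the partner was well above background, so whether it followed the dim arrays could not be read.

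The other 4 were each detected on the same 4 arrays, which leave out control 1 and activin 2. miR-299* comes from the Dlk1-Dio3 region, where 15 other miRNA genes lie within 10 kb of Mir299a. Its intensity was 9.89, 40.2 and 47.4 in control and 61.0, 11.9 and 46.6 with Activin. miR-299 gave between -4.05 and 2.18 and was detected on none. Most signal of miR-299* came from 1 of its 2 probes, with 15.2, 69.1 and 82.1 units in control and 105.7, 15.8 and 80.9 with Activin.

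miR-9* comes from the 3 Mir9 hairpins, which lie in non-coding genes, and both strands of this hairpin are known from neural cells. Its intensity was 11.7, 67.8 and 19.5 in control and 41.5, 17.9 and 48.4 with Activin. Control 2 was the highest array and control 3 was close to the dim ones, a spread not seen in the other 5. miR-9 gave 2.45, 8.08 and 2.46 in control and 2.08, -0.265 and 3.56 with Activin and was detected on none. Among neural markers on the array, of which miR-9 is a member, only miR-124 was detected, on 1 array.

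miR-17* comes from the miR-17-92 cluster, whose transcript also carries miR-18, miR-19a, miR-20a, miR-19b-1 and miR-92-1 and which promotes proliferation. Its intensity was 3.36, 21.2 and 23.5 in control and 29.6, 13.3 and 27.2 with Activin. miR-17 lay below 0 on all arrays, at -3.93, -4.87 and -4.89 in control and -4.01, -8.96 and -7.40 with Activin. The brighter probe of miR-17* was detected on 4 arrays, at 33.4 to 46.0 units, and the dimmer, at -3.71 to 13.2 units, on none. Probes for the plain strand were detected on none.

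miR-674* gave 4.08, 17.1 and 18.3 in control and 28.0, 3.70 and 21.1 with Activin. The partner miR-674 gave between -3.90 and 0.410 and was detected on none. The 3 probes of miR-674* reached 1.71, 23.6 and 60.6 units, and the third alone was detected. All 5 star strands detected without their partner thus had partner intensities at or below 8.10 units, under the 95th percentile of the negative controls on every array.

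**Figure D3:**
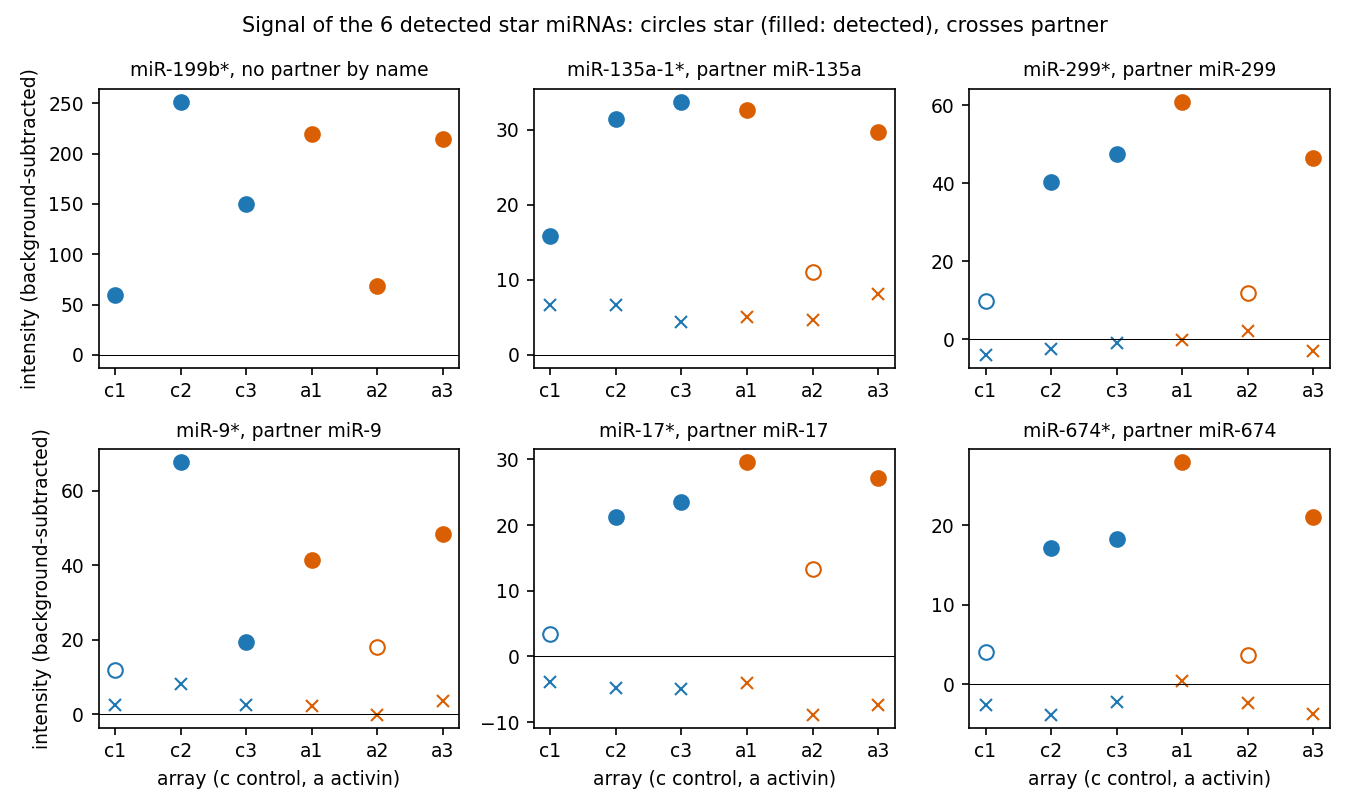
Background-subtracted intensity (y axis, scanner units, a scale of its own for each panel) of the 6 detected star miRNAs on each array (x axis; c control, a activin). Circles are star miRNAs, filled where detected, and crosses their partners; in all 6 panels the circles of c1 and a2 are the lowest, and no cross exceeds 8.10.

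Because miR-17 belongs to a group of miRNAs that share its seed, the seed relatives with a star strand on the array are shown beside it. The star strand of miR-20a is printed as well, since Mir20a is a neighbour of Mir17.
miR-20a: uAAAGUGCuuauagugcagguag
miR-20b: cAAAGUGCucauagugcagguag
miR-106b: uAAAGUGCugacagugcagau
miR-93: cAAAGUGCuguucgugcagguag
miR-20a*: aCUGCAUUacgagcacuuaaag

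Aligned from the 5′ end, miR-20a and miR-20b each match miR-17 at 21 of 23 bases, miR-106b at 18 of 21 and miR-93 at 19 of 23. miR-20a gave 176, 615 and 527 units in control and 562, 163 and 555 with Activin. miR-20b gave 207, 471 and 363 in control and 413, 146 and 472 with Activin. miR-106b gave 38.9, 152 and 121 in control and 144, 36.2 and 133 with Activin. These 3 were detected on all 6 arrays, and miR-93 on the 4 brighter arrays. Their star strands were detected on none, and the highest value among them was 1.55 units, for miR-20a* on activin 2. The detected strand was the plain strand in these 4 hairpins and the star strand in Mir17, a neighbour of Mir20a in a cluster. The miR-17 probes rose above background on no array, and whether they bind miR-17 was not tested. How much miRNAs of such similar sequence bind each other's probes was not tested.

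**Figure D4:**
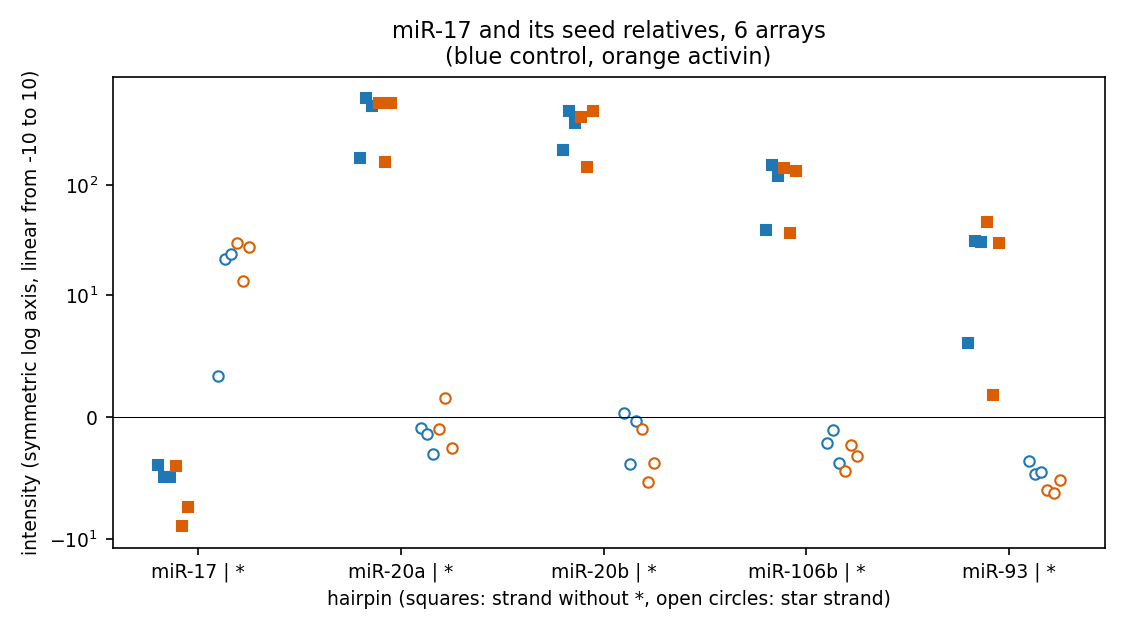
Background-subtracted intensity (y axis, symmetric log scale, linear between -10 and 10) of miR-17, miR-20a, miR-20b, miR-106b and miR-93 (squares) and of their star strands (open circles) on 6 arrays, blue for control and orange for Activin. miR-17 lies below 0 and miR-17* above it, while in the other 4 hairpins the plain strand is the higher set of points.

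Activin was compared with control on scaled signals in log2, in a linear model of 79 mouse miRNAs, those that every array of control, of Activin or of both groups detected. Of these 79, 1 (1.27%) passed an adjusted p of 0.05 (limma, Benjamini-Hochberg), and 14 (17.7%) had groups that did not overlap. Only miR-199b* and miR-135a-1* met the criterion for testing among the star miRNAs; neither passed, and none of the 2 was among the 9 miRNAs with an unadjusted p under 0.05. The scaled log2 signal of miR-199b* was -2.08, -1.29 and -1.51 in control and -1.38, -1.37 and -1.37 with Activin. The Activin arrays lay closer together than the control arrays and inside their range. The means were -1.63 ± 0.40 and -1.37 ± 0.0065 (SD, n = 3 each), and the log2 fold change was 0.25 (SE 0.29, 95% interval -0.33 to 0.84, limma adjusted p = 0.659).

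For miR-135a-1* the scaled log2 signal was -3.97, -4.29 and -3.66 in control and -4.12, -4.00 and -4.22 with Activin. The means were -3.98 ± 0.32 and -4.12 ± 0.11, and the log2 fold change was -0.14 (SE 0.29, 95% interval -0.72 to 0.44, limma adjusted p = 0.813). miR-135a-1* met the criterion for testing through control alone, since it was undetected on activin 2. Its intensity there was 11.1 units, below the 95th percentile of negative control spots on that array (14.04). Its software summed signal was 0.1 there, against 19.4 to 38.5 on the other arrays. The log2 fold change was -0.65 with the software's summed signal per miRNA, -0.54 with normexp, a model-based background correction, -0.42 with spike-in scaling and -0.30 with quantile scaling, where the groups did not overlap (limma adjusted p = 0.246). Its sign turned to 0.02 with slide column (the position of an array across the slide) as a block or without control 3. In the reported setting the intervals of both miRNAs span 0, and changes within them cannot be told from none; with quantile scaling that of miR-135a-1* ran from -0.57 to -0.04, without adjustment. The median log2 fold change over all 79 was 0.17, with 50 above 0 and 29 below. It moved between -0.31 and 0.24 across other processing of the same 79 and 6 arrays, and the value for miR-199b* turned negative with spike-in scaling (-0.02) and with normexp (-0.14).

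The other 4 star miRNAs were detected on 2 arrays of each group and were not tested in the main fit. The floor of -4.94 held 3 of the 6 values of miR-674* (control 1, control 2 and activin 2) and 1 of miR-17* (control 1). On activin 2, where none of the 4 was detected, miR-17* had its highest scaled value (-3.73). There miR-9* (-3.31) and miR-299* (-3.90) were also above the floor. The difference in means was 0.55 for miR-17*, 0.48 for miR-9*, 0.35 for miR-299* and 0.14 for miR-674*, and the groups overlapped in each. On the 4 brighter arrays alone the differences were 0.22, 0.17, 0.15 and 0.21. When the 130 miRNAs detected on at least 1 array were fitted, of which none (0%) passed by limma and 9 had an unadjusted p under 0.05, their adjusted p were 0.465, 0.665, 0.713 and 0.787. Without control 1 the difference of miR-299* turned to -0.013, and without activin 2 it was 0.52. That of miR-17* was 0.068 with the floor at 2 times its value and 0.081 with the brightest probe alone, and that of miR-674* was 0 with the higher floor. With normexp background the 4 differences turned negative, between -0.50 and -0.45.

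**Figure D5:**
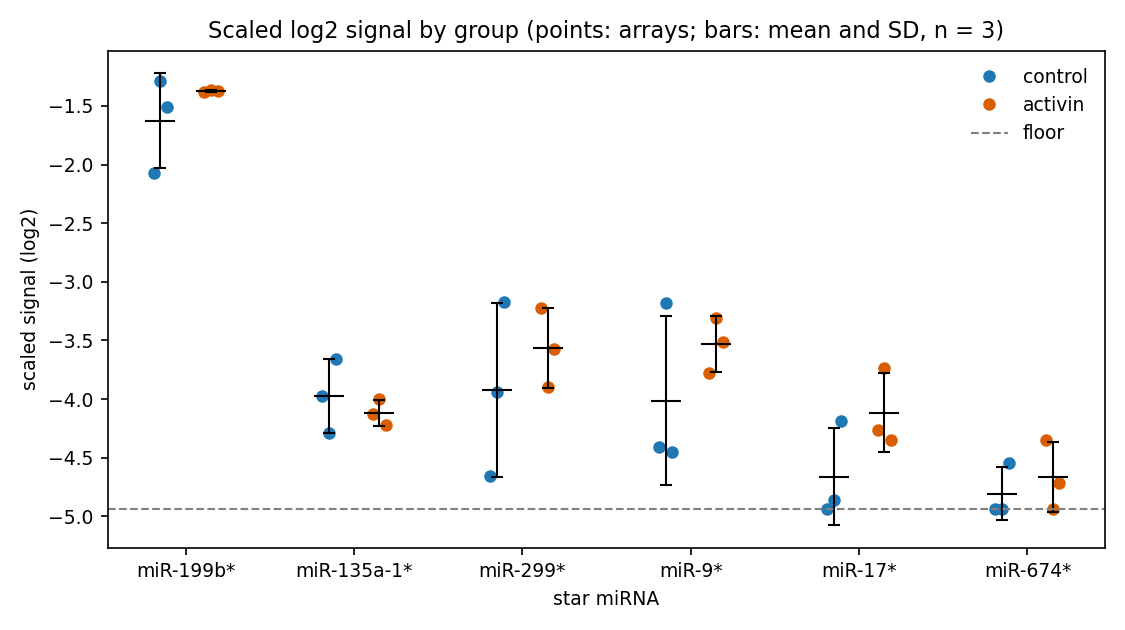
Scaled signal in log2 (y axis) of the 6 detected star miRNAs (x axis) in control and Activin, with a point for each array, the mean and SD (n = 3) and the floor as a dashed line. Groups overlap for all 6, and 4 values lie on the floor.

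Whether the strands of a hairpin moved unequally with Activin could not be tested for a star miRNA and its partner by name, since no pair had both strands detected. For miR-199b* the strand named miR-199a-3p, which has the sequence of the other strand of Mir199b but is also made by the miR-199a hairpins, was used instead, a choice made after the data were seen. miR-199a-3p was detected on all 6 arrays, at 93.6, 394 and 262 units in control and 451, 103 and 361 with Activin. The log2 difference of miR-199b* minus miR-199a-3p within an array was -0.66, -0.65 and -0.81 in control and -1.04, -0.58 and -0.75 with Activin. The means were -0.71 ± 0.089 and -0.79 ± 0.23 (SD, n = 3 each), and the change of -0.085 was within the spread (exact permutation p = 0.7). Array brightness cancels in this difference. In intensity both miRNAs were lowest on control 1 and activin 2, as were miR-21 and miR-20a, so that pattern is not particular to them.

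The 1 miRNA that passed among the 79 was miR-302c, chosen here after its values were seen because its star strand is a member. miR-302c gave 8.74, 31.0 and 49.9 units in control and 94.9, 18.9 and 82.4 with Activin. Its log2 fold change was 1.23 (SE 0.30, limma adjusted p = 0.00597), and the groups overlapped in scaled signal. miR-302c* gave -4.44, -3.62 and -4.80 in control and -3.48, -4.40 and -4.15 with Activin and was detected on no array, so its direction could not be read. The call on miR-302c was lost in 21 of the 24 alternatives, as no miRNA passed in them, including without control 1, without control 2 and without each of the 3 Activin arrays.

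Of the 109 star miRNAs detected on no array, 97 had no spot well above background on any array, and their intensities together with those of the others ran from -9.82 to 21.7. The scanner software makes a call of its own for each miRNA, and by it 4 more were detected: miR-154* on 1 array, miR-411* on 2, and miR-433* and miR-483* on 3 each. By the same call miR-9* was detected on all 6 arrays, and the comparison with Activin gave it a limma adjusted p of 0.615. miR-154* gave 4.37, 10.68 and 16.5 units in control and 21.7, -1.45 and 21.0 with Activin. miR-483* gave 11.8, 16.8 and 16.1 in control and 20.04, 16.2 and 16.9 with Activin, and was lowest on control 1, while activin 2 lay among the other arrays. By that call the star total was 10 of 115 (8.70%), against 166 of 611 mouse miRNAs (27.2%), and 4 pairs had both strands detected. The star strand alone was detected in 5 pairs.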

How the data were processed

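RNA (100 ng per sample, labelled with Cy3) was hybridised to single-colour Agilent mouse miRNA arrays on 1 slide, where activin 2 and 3 lay in row 2 and all others in row 1. The deposited scanner files hold spot intensity values on a linear scale, background-subtracted by the authors' software, Agilent Feature Extraction (10.7.3.1 per the file headers, 10.1.1 per the submitters' processing notes). The deposited series table holds the same intensity values, with medians of 1.52, 1.77 and 1.29 for control and 1.84, -0.0489 and 1.24 for Activin, so its scale is linear and uncentred. Flags for background and outliers are deposited software calls. Spots without an outlier flag were averaged by probe and then by miRNA (20 spots per miRNA). Each array was divided by its 75th percentile over 59 probes detected on all arrays, floored at 0.0326 and converted to log2. Groups were compared with limma 3.58.1 (R 4.3.3, lmFit and eBayes, two-sided), adjusted over 79 miRNAs; with 194 prior degrees of freedom the SEs mostly reflect a spread shared by all miRNAs. The test was checked on simulated data with an equal spread for all miRNAs and changes far larger than those of the star miRNAs. The simulation had no floor and no dim arrays, so it does not show how small changes are recovered here. The planned limma test of strand pairs could not be made and was replaced by an exact permutation test. Alternatives covered scaling, background, probe summary, floor, filter, detection rule, slide column, replicate block and leaving out arrays; normexp used median spot signals, as mean signals were not used here. The main fit did not pair arrays by the replicate numbers in the titles. Deviations of same-numbered arrays from their group means had correlations of -0.643, -0.0949 and 0.343. With 3 arrays per group and the dim arrays under different numbers, these cannot show whether the arrays were paired.

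All detected star miRNAs are named, with up to 20 undetected ones whose partner was on all arrays, in name order. Members, lists and rules were chosen with earlier results of these data known. The headers name mm9 as the design's build, so RefSeq (GRCm38.p6) was used for names, neighbours and sequences, and no coordinates are given. The number of arrays limits the precision.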

Additional observations from a re-analysis of the deposited data

How the results depend on the processing

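The count of star miRNAs detected on at least 1 array depended on the detection rule. It was 6 as reported, 10 by the software's call, 18 where 1 spot was enough and 2 where all probes had to be detected, and 6 without each array in turn. Star strands detected without their partner numbered 5 as reported, 1 where all probes had to be detected and 5 or 6 otherwise. No star miRNA passed the threshold in any of 23 alternatives; where all probes had to be detected, no star miRNA was left to test. The log2 fold change of miR-135a-1* turned to 0.0219 with slide column as a block and 0.0175 without control 3 (range without each array -0.299 to 0.0175). It was larger in the main direction with quantile scaling (-0.304), spike-in scaling (-0.417), normexp (-0.538) and the software's summed signal (-0.650). In the last of these, the signal of miR-135a-1* was 0.1 on activin 2, where it was undetected. The log2 fold change of miR-199b* turned to -0.0227 with spike-in scaling and -0.138 with normexp (0.0297 to 0.422 without each array). The causes were not tested. The difference in detected star miRNAs was -2.67 to 1.33. The replicate block left 0 star miRNAs and 1 of all 79 past the threshold, with a difference of -0.333 in detected star miRNAs, and changed no call. Signal over background limits all of this, since most star probes never rose above it.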
